A study of Homo sapiens with 10 samples.

Results

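The genes of the reelin signalling pathway described here were RELN, VLDLR, LRP8, DAB1 and DAB2, 5 of the 20033 protein-coding genes in the annotation. They were chosen by name, and every peak over each gene body or within 50 kb of it was collected from the deposited lists. DAB1 was not a neutral choice. The paper had already named it, from the same ChIP-Seq, as a gene with more promoter acetylation in neuroendocrine-like cells. This gave 448 of 537404 peaks. After overlapping peaks of the cell lines had been merged, there were 59 regions of H3K27ac and 276 regions of H3K18ac, 335 of 337523 regions in all. Both marks are acetylations of histone H3, at lysine 27 or lysine 18, that sit on active promoters and enhancers.

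C4-2B is a castration-resistant line of human prostate adenocarcinoma. C4-2BER is a neuroendocrine-like line that the study derived from it by continuous exposure to enzalutamide, an androgen receptor antagonist. Per the methods, C4-2BER was also kept in enzalutamide during culture. The derivative therefore differs from its parent in past and present drug exposure as well as in phenotype, and these cannot be told apart here. The 2 lines stand for 1 parent and 1 derived culture. For each line and mark, 2 ChIP-Seq libraries were pooled by the authors before peaks were called, with 1 input library per line. Each region therefore has 1 value per line, the fold enrichment of the ChIP signal over the local background, without replicate error, and the lines could not be tested against each other. All differences below are descriptions of these pools.

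The lists hold no read numbers, so depth is unknown, and a site with no peak can still carry the mark. Across all regions with a peak in both lines the median log2 ratio of fold enrichment, C4-2BER over C4-2B, was −0.17 for H3K27ac and −0.12 for H3K18ac. At promoters of protein-coding genes with a peak in both lines the medians were −0.50 and −0.33, so a promoter that was lower in C4-2BER by such an amount moved with the lists as a whole. As a check of the labels, the promoters of the androgen-regulated genes KLK3 (13.8-fold in C4-2BER and 20.3-fold in C4-2B) and TMPRSS2 (20.03-fold and 21.5-fold) carried H3K27ac in both lines. Among neuroendocrine markers, ENO2 was 14.3-fold in C4-2BER and 4.00-fold in C4-2B in H3K27ac, SYP stood at 5.67-fold in C4-2BER and 8.16-fold in C4-2B, and CHGA and INSM1 had no H3K27ac promoter peak in either line. By H3K27ac, 1 of these 4 neuroendocrine markers was thus higher in the line labelled neuroendocrine-like.

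Reelin, the product of RELN, is a large secreted glycoprotein that guides the layering of neurons in the developing cortex. It binds the lipoprotein receptors VLDLR and LRP8 (also called ApoER2) on the cell surface, and the clustered receptors bring the cytoplasmic adaptor DAB1 to kinases of the SRC family, which phosphorylate it. DAB2 is a relative of DAB1 that links receptors of the same family to clathrin-coated pits. DAB1 is one of the longest human genes and lies in a common fragile site.

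Most regions at DAB1 were higher in C4-2BER, and those at the other members were not. A region was called increased if C4-2BER alone had a peak there, or if its fold enrichment was 2 or more times that of C4-2B, and decreased if the same held for C4-2B. Of the 25 H3K27ac regions at the DAB1 locus, 22 (88%) were increased and 1 was decreased, where 30.5% of all H3K27ac regions were increased and 22.7% decreased. Of its 166 H3K18ac regions, 129 (77.7%) were increased and 3 (1.81%) decreased, beside 26.2% and 23.5% of all H3K18ac regions. In contrast, the loci of RELN, VLDLR, LRP8 and DAB2 together had 9 increased and 12 decreased among 34 H3K27ac regions (26.5% and 35.3%), and 26 increased and 28 decreased among 110 H3K18ac regions (23.6% and 25.5%), close to all regions in H3K18ac and with more decreased than increased regions in H3K27ac.

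**Figure D1:**
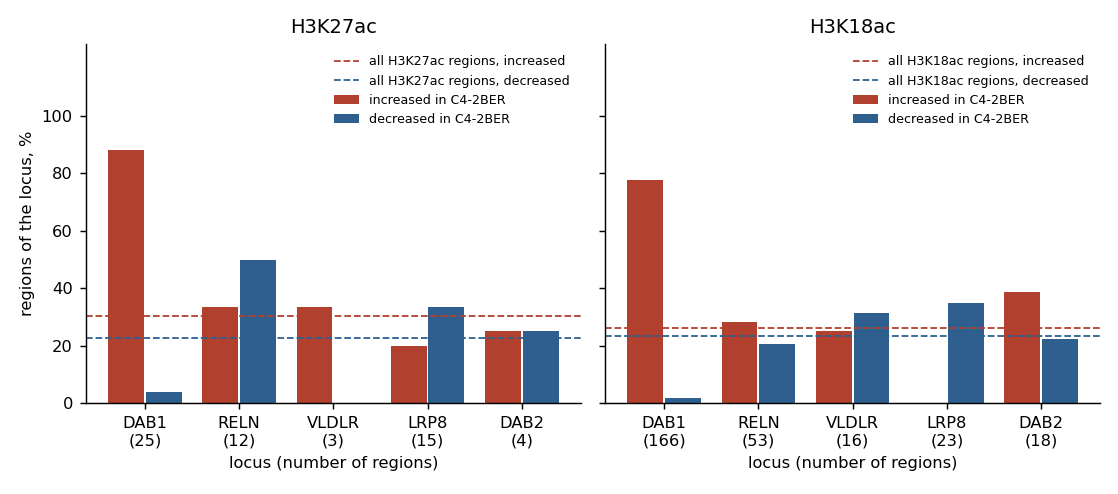
Share of the regions at each locus (gene body and 50 kb to each side) that were increased (red bars) or decreased (blue bars) in C4-2BER, in %, with the number of regions in parentheses; dashed lines give the same shares over all regions of the mark. The DAB1 bars for increased regions reach 88% and 77.7%, above the lines at 30.5% and 26.2%, while the bars of the other loci lie on both sides of the lines.

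DAB1 (ENSG00000173406.16) occupies chr1:56994778-58546734 on the minus strand of GRCh38, 1552 kb. Over this body and its flanks, C4-2BER had 25 H3K27ac peaks covering 22.8 kb and C4-2B had 4 peaks covering 4.71 kb. For H3K18ac there were 163 peaks over 133 kb in C4-2BER and 37 peaks over 26.8 kb in C4-2B. The added peaks were of ordinary strength, since the median fold enrichment of the H3K18ac peaks at the locus was 2.62 in C4-2BER, beside 2.55 in the whole list, and they were narrower than usual, with a median width of 529 bp beside 936 bp. Where both lines had an H3K18ac peak, the levels were alike, as the 35 shared regions had a median log2 ratio of −0.04 and 16 of them were higher in C4-2BER. The difference at DAB1 was therefore one of how many sites carried a peak, with 128 H3K18ac regions found just in C4-2BER and 3 just in C4-2B.

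**Figure D2:**
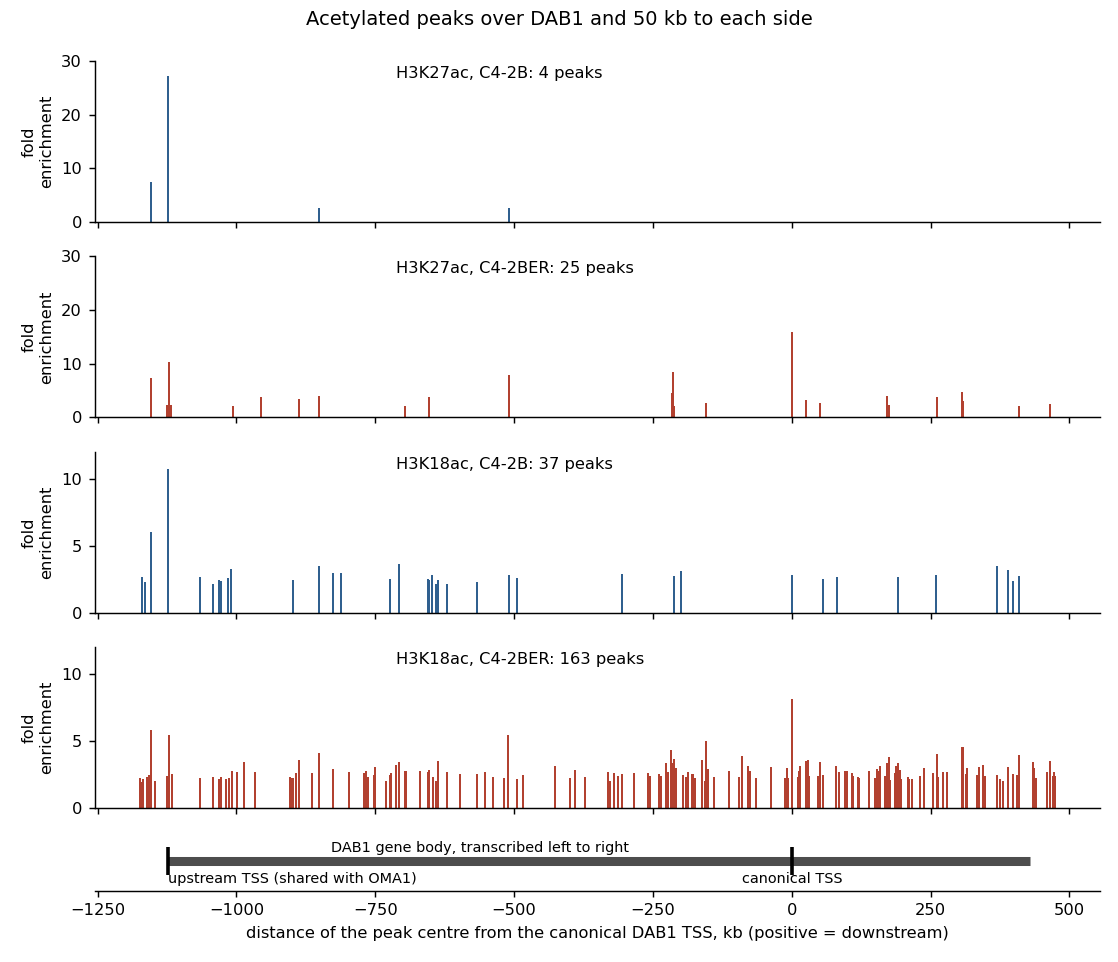
Fold enrichment (vertical axis, linear) of every peak over DAB1 and its flanks against the distance of the peak centre from the canonical TSS in kb, in the 4 lists, with the gene body drawn below. C4-2BER has 25 H3K27ac and 163 H3K18ac peaks spread along the gene where C4-2B has 4 and 37, and the tallest C4-2B peaks stand at the upstream TSS.

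The promoters of DAB1 went in opposite directions. The annotation gives DAB1 9 distinct transcription start sites (TSSs), of which 3 had a peak within 2000 bp upstream to 500 bp downstream. At the canonical TSS (position 57424060, with a second annotated start 3 bases away), the H3K27ac peak at chr1:57421869-57425190 reached 15.9-fold in C4-2BER, stronger than 95.5% of that list, and C4-2B had no peak. H3K18ac at the same place, chr1:57421829-57425161, was 8.13-fold in C4-2BER and 2.82-fold in C4-2B, a log2 ratio of 1.53. This promoter therefore carried an H3K18ac peak of ordinary strength in C4-2B, stronger than 55.4% of that list, and strong peaks of both marks in C4-2BER. Of the canonical TSSs of protein-coding genes with a peak in this window, 4.61% were increased and 11.1% decreased in H3K27ac, and 2.55% and 6.96% in H3K18ac.

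At the far upstream TSS (position 58546734), 1123 kb away from the canonical one, the order was reversed. H3K27ac at chr1:58544599-58547265 was 10.3-fold in C4-2BER and 27.3-fold in C4-2B (log2 ratio −1.41), and H3K18ac was 5.48-fold and 10.7-fold (−0.97). This promoter window is shared with OMA1, which encodes a mitochondrial protease, and with the lncRNA gene ENSG00000286918, so the signal cannot be assigned to DAB1. After rescaling to the shared regions, its H3K27ac log2 ratio was −0.97, just under the threshold of 2-fold. A weak peak of each mark just beyond it, chr1:58548723-58548975 for H3K27ac, was present in C4-2BER only, at 2.36-fold and 2.38-fold. The other 6 TSSs of DAB1 had no peak of either mark in either line. Taken as the highest value over all its TSSs, DAB1 would read 15.9-fold in C4-2BER and 27.3-fold in C4-2B in H3K27ac, and 8.13-fold and 10.7-fold in H3K18ac, and would count as unchanged in both marks, with the maxima at different promoters.

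The sequences upstream of these promoters show how unlike they are in base composition. Below are the 250 bases before each RefSeq TSS (GRCh38.p14, read along the minus strand, 5′ to 3′). Capitals mark GGGCGGG, the GC box bound by SP and KLF factors, and CAGCTG, an E-box bound by basic helix-loop-helix factors, searched on both strands.
DAB1 promoter at canonical TSS, chr1:57424061-57424310: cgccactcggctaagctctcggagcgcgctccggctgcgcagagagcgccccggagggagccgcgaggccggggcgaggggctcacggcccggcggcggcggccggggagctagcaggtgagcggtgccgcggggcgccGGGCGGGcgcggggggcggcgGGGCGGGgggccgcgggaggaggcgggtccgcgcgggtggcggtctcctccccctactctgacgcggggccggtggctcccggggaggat
DAB1 promoter at upstream TSS, chr1:58546727-58546976: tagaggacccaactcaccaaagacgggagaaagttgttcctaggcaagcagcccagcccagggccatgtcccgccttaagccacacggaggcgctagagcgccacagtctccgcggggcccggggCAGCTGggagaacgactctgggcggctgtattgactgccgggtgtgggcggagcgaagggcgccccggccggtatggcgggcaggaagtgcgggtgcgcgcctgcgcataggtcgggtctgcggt
The canonical window held 82.8% GC, 41 CpG dinucleotides and 2 GC boxes, a motif present in 31.5% of 35116 RefSeq promoter windows of this length. The upstream window held 68% GC, 23 CpG dinucleotides, no GC box and 1 E-box, which is found in 14.0% of the windows.

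**Figure D3:**
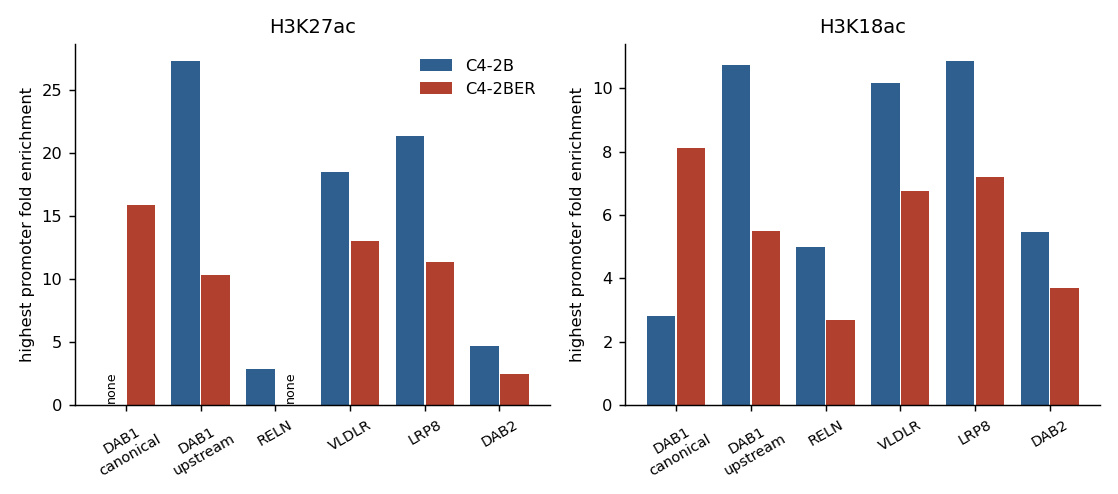
Highest fold enrichment (linear axes from 0) of a peak in the promoter window in C4-2B (blue) and C4-2BER (red), for the canonical TSS of each gene and the upstream TSS of DAB1; "none" marks a list with no peak there. Only the canonical DAB1 promoter is higher in C4-2BER, at 15.9-fold in H3K27ac and 8.13-fold in H3K18ac; the other 5 promoters drawn are lower there in both marks.

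Enhancers inside DAB1 were mapped as H3K27ac regions over the gene body, outside the promoter window of any gene, that overlapped an H3K18ac peak in at least 1 line. Of 22 H3K27ac regions over the body, 19 met this definition, 2 lay in promoter windows and 1 had no H3K18ac. Of the 19 enhancers, 18 (94.7%) were increased, 1 was unchanged and 0 were decreased, and in 17 the H3K27ac peak was absent from C4-2B. Among 34247 regions defined the same way over all genes, 34.3% were increased and 25.4% decreased. All 19 had an H3K18ac peak in C4-2BER and 6 had one in C4-2B.

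More of the enhancers lay upstream of the canonical TSS than downstream, and the upstream ones were inside introns of longer transcripts. The upstream part is also the larger, 1123 of 1552 kb, so the enhancers were not concentrated there. The canonical transcript has 15 exons and the longest transcript, which starts at the upstream TSS, has 21. Of the 19 enhancers, 7 were in introns 1, 2 and 4 of the canonical transcript, 1 overlapped its exon 12 (chr1:57015003-57015343) and 11 were upstream of its TSS, in introns 1, 3, 4, 5 and 7 of the longest transcript. The enhancers at chr1:58430496-58430912 and chr1:58541048-58541648 also lie in OMA1, and the one at chr1:58076660-58077123 lies in the lncRNA gene ENSG00000235038.

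The enhancer with the highest H3K27ac in C4-2BER was at chr1:57637273-57637751, 213 kb upstream of the canonical TSS, with a fold enrichment of 8.44 and no peak in C4-2B. H3K18ac there was 3.68-fold in C4-2BER, with no overlapping peak in C4-2B. It belonged to a group of 3 enhancers within 5.32 kb, together with chr1:57639431-57640266 (4.61-fold in C4-2BER only) and chr1:57634950-57636102 (2.04-fold in C4-2BER only). The second highest, at chr1:57933762-57934403 in intron 5 of the longest transcript, had a peak in both lines, 7.96-fold in C4-2BER and 2.61-fold in C4-2B (log2 ratio 1.61), and its H3K18ac was 5.45-fold and 2.84-fold. The third, at chr1:57117739-57118113 in intron 4 of the canonical transcript, was 4.82-fold in C4-2BER only, with H3K18ac of 4.55-fold in C4-2BER only. In H3K27ac, these enhancers were thus either absent from the C4-2B list or weak in it.

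The strongest and the third strongest enhancer, both with H3K27ac in C4-2BER alone, are shown by the central 300 bases of their H3K27ac regions (GRCh38, plus strand), with CAGCTG in capitals as above.
DAB1 enhancer 1, chr1:57637362-57637661: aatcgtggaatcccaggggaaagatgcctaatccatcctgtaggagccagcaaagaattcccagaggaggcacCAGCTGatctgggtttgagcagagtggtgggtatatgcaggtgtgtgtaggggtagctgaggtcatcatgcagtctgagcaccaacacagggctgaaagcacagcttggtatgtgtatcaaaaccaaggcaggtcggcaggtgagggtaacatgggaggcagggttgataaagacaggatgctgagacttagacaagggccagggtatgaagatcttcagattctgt
DAB1 enhancer 3, chr1:57117776-57118075: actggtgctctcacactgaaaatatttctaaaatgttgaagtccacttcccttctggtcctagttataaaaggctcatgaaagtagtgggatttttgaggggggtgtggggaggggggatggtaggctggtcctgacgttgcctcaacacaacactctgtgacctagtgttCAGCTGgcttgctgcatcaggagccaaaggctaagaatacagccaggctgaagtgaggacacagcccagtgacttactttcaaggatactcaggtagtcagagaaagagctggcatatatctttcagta
Each held 1 E-box. All of their 271 overlapping 30-base words occurred once in the genome. At the second strongest enhancer, 218 of 271 such words (80.4%) occurred more than once, so short reads are hard to place there and its fold enrichment carries that limit.

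Of the remaining 7 enhancers among the 10 with the highest H3K27ac, 3 were in the canonical transcript and 4 upstream of it. In intron 2, chr1:57251785-57253419 (the widest, 1635 bp) was 3.98-fold and chr1:57162964-57163700 was 3.71-fold in C4-2BER, with no C4-2B peak. In intron 1, chr1:57397438-57397758 was 3.27-fold in C4-2BER only, 26 kb downstream of the TSS. Upstream, chr1:58076660-58077123 was 3.84-fold and chr1:58310518-58311754 was 3.42-fold, both in C4-2BER only. The enhancer that did not change by the threshold was chr1:58274476-58275042, with H3K27ac of 3.95-fold in C4-2BER and 2.63-fold in C4-2B (log2 ratio 0.59) and H3K18ac of 4.14-fold and 3.50-fold. The other 9 enhancers lay between 2.04-fold and 2.99-fold in C4-2BER, with no H3K27ac peak in C4-2B. The H3K27ac region left out for want of H3K18ac, chr1:58379032-58379353, was 3.73-fold in C4-2BER and absent from C4-2B.

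**Figure D4:**
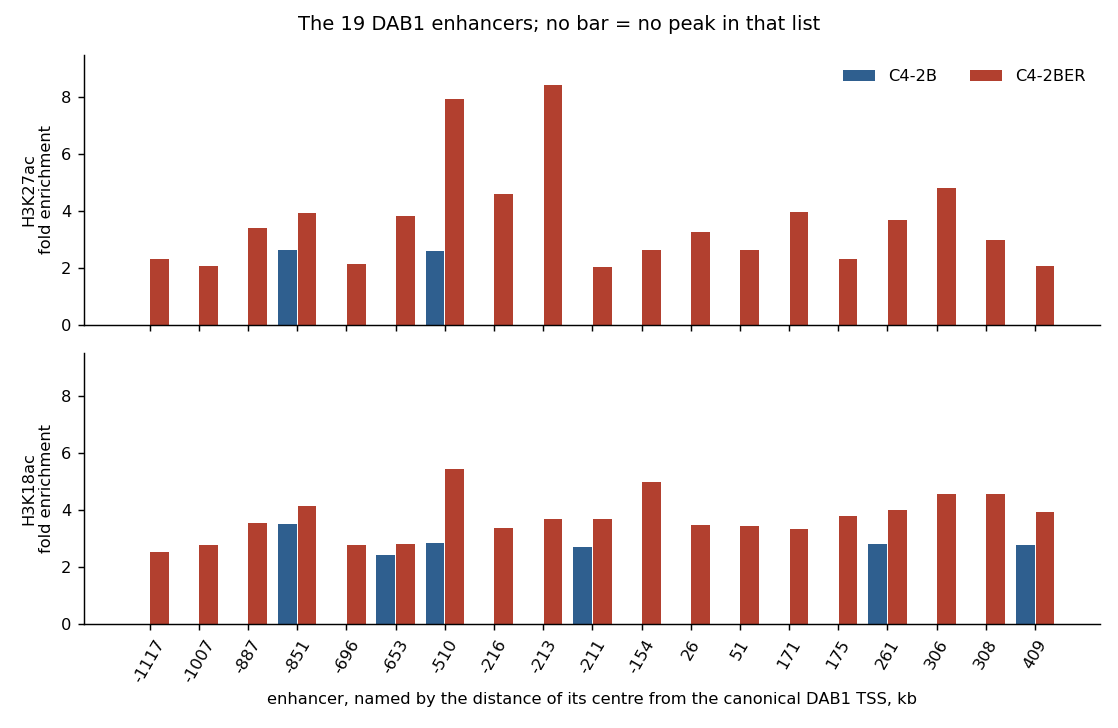
Fold enrichment (linear axes from 0) of H3K27ac (top) and H3K18ac (bottom) at the 19 DAB1 enhancers in C4-2B (blue) and C4-2BER (red), ordered by the distance of the centre from the canonical TSS in kb; a missing bar is a list with no peak. H3K27ac has 2 blue bars against 19 red bars, and H3K18ac has 6 blue bars against 19.

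The enhancers were narrow and of low to moderate strength. In H3K27ac, the strongest exceeded 81.9% of the C4-2BER list and the weakest 1.51%. The median H3K27ac fold enrichment of the enhancers in C4-2BER was 3.27 (range 2.04 to 8.44). It was 2.97 for regions of the same kind over all genes and 3.31 for the whole list. The median width of the enhancers was 479 bp (256 to 1635), beside 939 bp for regions of the same kind. The median GC content of the enhancers was 46.5% (43.4 to 62.8), beside 49.98% for all such regions and 49.2% for the increased ones. The share that already had an H3K18ac peak in C4-2B was lower than usual, at 5 of the 18 increased enhancers (27.8%). Over all genes it was 7653 of 11763 increased regions (65.1%). The DAB1 enhancers were narrower, which leaves less room for an overlap, and this was not adjusted for. A smaller share of the increased DAB1 enhancers thus had an H3K18ac peak in the parental line, and 13 of 18 had no peak of either mark there.

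The letters of the enhancers gave few shared motifs. The central 300 bases of the 19 enhancers were searched on both strands, beside the same windows of all 34247 regions. The E-box CAGCTG occurred in 6 (31.6%), beside 16.8% of all windows. AGAACA, a half-site of the androgen response element, occurred in 2 (10.5%, beside 17.4%), and TGATTNAT, a PBX-HOX site, in 1 (5.26%, beside 3.05%). The AP-1 site TGANTCA (8.12% of all windows), the forkhead site TGTTTAC (4.92%), the GC box (4.00%) and GCGTGAC, a core of the PAX5 site (0.891%), occurred in 0 of the 19. These are letter matches in short windows and do not show binding. For a core found in 0.891% of all windows, 0 of 19 says little. The paper shows a Pax5 motif in a region of DAB1 that differed in accessibility, which these windows need not cover.

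H3K18ac spread over more of DAB1 than H3K27ac did. Of the 129 increased H3K18ac regions, 14 overlapped H3K27ac of C4-2BER and 115 had no H3K27ac in either line. Those found in C4-2BER only had a median fold enrichment of 2.62 (1.99 to 4.98), beside 2.40 for all such H3K18ac regions, and 4 of them reached 4-fold. The strongest were chr1:57576856-57578402 (4.98-fold), upstream of the canonical TSS, chr1:57114876-57116548 (4.58-fold) and chr1:57117771-57118125 (4.55-fold), both in intron 4, and chr1:57641225-57641683 (4.29-fold), beside the group of 3 enhancers. Each of the first 3 overlapped a mapped enhancer. The 3 regions found in C4-2B only were chr1:57623088-57623305, chr1:58235960-58236202 and chr1:58588107-58589182, between 2.26-fold and 3.08-fold.

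The excess of C4-2BER peaks was larger over the gene body than beside it. In windows as long as DAB1 directly below and above it on the chromosome, C4-2BER had 30 and 61 H3K27ac peaks where C4-2B had 21 and 43, ratios of 1.43 and 1.42, while over the gene body the counts were 22 and 3, a ratio of 7.33. For H3K18ac the ratios were 1.54 below (120 and 78 peaks), 1.29 above (160 and 124) and 4.32 over the gene body (147 and 34). In steps of 250 kb, the difference in H3K18ac was widest around the canonical TSS, with 37 C4-2BER peaks and 4 C4-2B peaks in the first 250 kb downstream, and 29 and 2 in the first 250 kb upstream. Outside the gene the steps varied, with 20 and 9 from 500 to 750 kb downstream, 33 and 35 from 750 to 1000 kb and 16 and 4 from 1750 to 2000 kb. The windows beside DAB1 were thus not neutral either. Below it, 65 of 141 H3K18ac regions were increased and 22 decreased, and 17 and 11 of 38 H3K27ac regions. Above it, the counts were 63 and 20 of 179 for H3K18ac and 29 and 8 of 67 for H3K27ac.

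Features that differ between the lists moved with this result and were measured beside it. Regions at DAB1 were lower in GC (median 49.5% for H3K18ac, beside 51.5% for all) and narrower (543 bp, beside 894 bp), and both go with more increased regions over the genome. When all regions were divided into 10 equal groups by GC content and the groups were weighted as at DAB1, 31.2% of H3K18ac and 35.3% of H3K27ac regions would be increased, and weighting by width gave 31.9% and 39.4%. The shares at DAB1 were 77.7% and 88%, and the highest single group reached 50.8%. GC content and width were each weighted alone, not jointly, and their part in the result was not tested. Local background was taken only from H3K18ac peaks that were narrow (below 320 bp) and weak (−log10 p-value below 6). In C4-2BER its median was 5.75 reads at DAB1 (34 peaks, 4 to 12.25) and in the whole list. In C4-2B both medians were 4 reads (10 peaks at DAB1, 2.75 to 5). H3K27ac had 1 such peak at DAB1 in C4-2BER and 0 in C4-2B, too few to compare. Peaks selected in this way leave out most of the locus, so the equal medians do not show that background or copy number was alike. The number of copies of DAB1 in each line was not analysed here, and its part in the result was not tested.

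Among the 323 protein-coding genes of at least 500 kb, DAB1 had the most increased H3K18ac regions in its body, 116, with 2 decreased; the gene ranked next, LRP1B, had 99 and 6. Per 100 kb its excess of increased over decreased H3K18ac regions was 7.35, which ranked 8, where the median long gene had 0.35. For H3K27ac, DAB1 had 20 increased and 1 decreased and ranked 15 by count and 42 per 100 kb. RELN, the other member of this length, had 11 increased and 10 decreased H3K18ac regions and 4 and 4 in H3K27ac. Other long genes thus shared an excess of the same direction, with more increased than decreased H3K18ac regions in 191 of the 323 genes.

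**Figure D5:**
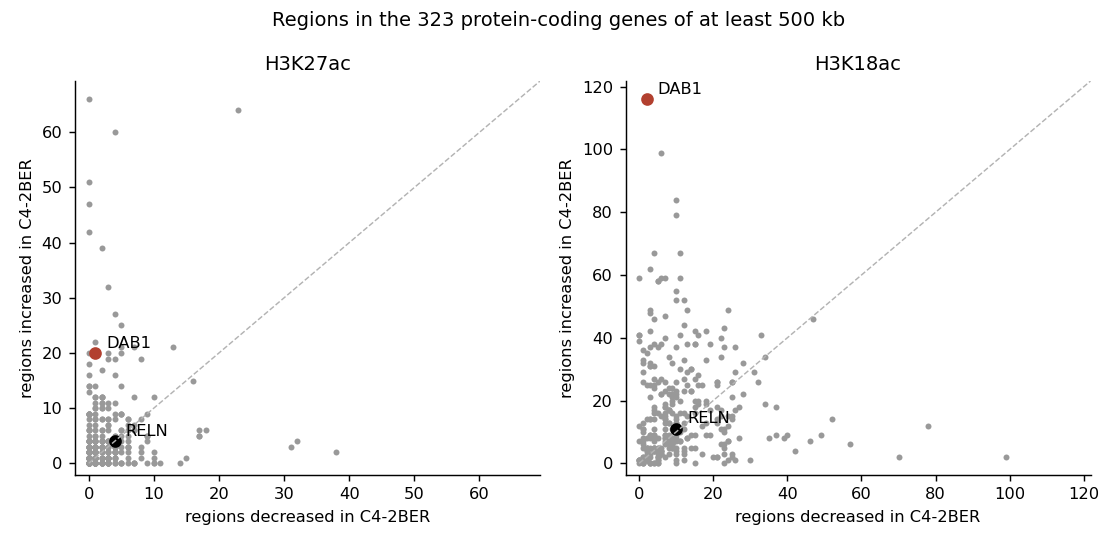
Number of regions increased (vertical axis) against decreased (horizontal axis) in C4-2BER within each of 323 protein-coding genes of at least 500 kb, for H3K27ac (left) and H3K18ac (right); the dashed line marks equal numbers. DAB1 lies at 20 against 1 and at 116 against 2, the highest point for H3K18ac, and RELN lies on or near the line at 4 against 4 and 11 against 10.

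RELN (ENSG00000189056.15, chr7:103471381-103989658, minus strand, 518 kb), the ligand, was lower in C4-2BER at its promoter and differed in both directions along its body. The promoter region chr7:103989147-103990310 had an H3K27ac peak of 2.86-fold in C4-2B and none in C4-2BER, and H3K18ac was 2.67-fold in C4-2BER and 5.00-fold in C4-2B (log2 ratio −0.90). The 250 bases before the RefSeq TSS (minus strand) were as rich in GC as those of the canonical DAB1 promoter, with 83.2% GC and 43 CpG dinucleotides, and held the GC box in overlapping copies.
RELN promoter at canonical TSS, chr7:103989659-103989908: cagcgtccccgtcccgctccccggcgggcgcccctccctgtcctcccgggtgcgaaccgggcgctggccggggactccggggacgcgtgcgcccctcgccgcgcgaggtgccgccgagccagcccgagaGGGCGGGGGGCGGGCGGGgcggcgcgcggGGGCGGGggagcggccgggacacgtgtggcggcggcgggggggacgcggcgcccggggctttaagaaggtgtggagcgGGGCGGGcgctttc
Both promoters thus had GC-rich sequence with GC boxes, while H3K27ac was found at DAB1 in C4-2BER only and at RELN in C4-2B only. The 2 peaks were unlike in strength. The DAB1 peak was 15.9-fold, while the RELN peak was 2.86-fold, stronger than 35.1% of the C4-2B list.

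Of the 12 H3K27ac regions at RELN, 4 were found in C4-2BER only, 6 in C4-2B only and 2 in both. Of 53 H3K18ac regions, 15 were increased, 11 decreased and 27 unchanged, so the C4-2BER list had 42 H3K18ac peaks and the C4-2B list 39. The highest value was at chr7:103487165-103488299 in intron 60, in the window of a non-canonical TSS, with 2.99-fold in C4-2BER and 5.58-fold in C4-2B (log2 ratio −0.90). The strongest distal regions were chr7:103942681-103944981 in intron 1 (3.60-fold and 4.26-fold), chr7:103594218-103594610 over exon 26 (3.79-fold, absent from C4-2B) and chr7:103812162-103812466 in intron 3 (3.09-fold, absent from C4-2B). The region over exon 26 coincided with the highest H3K18ac value at the locus, 5.82-fold in C4-2BER with no peak in C4-2B, which is stronger than the H3K18ac at any DAB1 enhancer.

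The receptors VLDLR and LRP8 had strong promoters in both lines. VLDLR (ENSG00000147852.17, chr9:2621182-2660056, plus strand) had H3K27ac of 13.0-fold in C4-2BER and 18.5-fold in C4-2B at chr9:2620821-2623636 (log2 ratio −0.50, close to the median of all protein-coding promoters) and H3K18ac of 6.75-fold and 10.2-fold (−0.59). Its antisense lncRNA VLDLR-AS1 shares the window. Away from the promoter, VLDLR had 1 H3K27ac region in C4-2BER only, 2.70-fold at chr9:2613163-2614256 some 8 kb upstream, with H3K18ac level between the lines (3.61-fold and 3.55-fold), and 1 region in both lines, chr9:2664026-2664938 (2.23-fold and 3.03-fold). Of 16 H3K18ac regions, 4 were increased and 5 decreased.

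LRP8 (ENSG00000157193.18, chr1:53242364-53328469, minus strand) had H3K27ac of 11.3-fold in C4-2BER and 21.3-fold in C4-2B at chr1:53325651-53329944 (log2 ratio −0.92) and H3K18ac of 7.20-fold and 10.9-fold (−0.59), in a window shared with the lncRNA LRP8-DT. After rescaling, these ratios were −0.50 and −0.33. The genes beside it had the same order, with H3K27ac log2 ratios of −0.60 at CPT2, −0.66 at CZIB and −0.37 at MAGOH. Inside LRP8, H3K27ac in the windows of internal TSSs went in both directions. The window of TSS 53292138 had 3.60-fold in C4-2BER and no peak in C4-2B, and that of TSS 53271812 had 2.75-fold and 2.33-fold. The other internal windows with an H3K27ac peak had it in C4-2B only. As whole merged regions, those over these windows were lower in C4-2BER or had no peak there. They were chr1:53292934-53299616 in intron 2 (3.60-fold in C4-2BER and 5.32-fold in C4-2B), chr1:53273551-53275393 in intron 6 (2.75-fold and 4.02-fold), chr1:53271659-53272654 in intron 6 (2.33-fold in C4-2B, with no peak in C4-2BER) and chr1:53276971-53277945 over exon 5 (2.34-fold in C4-2B, with no peak in C4-2BER). The strongest distal regions were chr1:53305641-53306740 (3.11-fold, absent from C4-2BER), chr1:53315649-53317583 (2.77-fold in C4-2BER and 2.15-fold in C4-2B) and chr1:53288670-53288986 (2.57-fold, absent from C4-2BER). LRP8 was the only member with no increased H3K18ac region, with 8 decreased and 15 unchanged of 23. Of its 15 H3K27ac regions, 3 were increased and 5 decreased.

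DAB2 (ENSG00000153071.15, chr5:39371675-39462300, minus strand), the endocytic adaptor, had a weaker promoter, with H3K27ac of 2.48-fold in C4-2BER and 4.64-fold in C4-2B at chr5:39424417-39425326 (log2 ratio −0.91) and H3K18ac of 3.70-fold and 5.45-fold (−0.56). Its strongest element was distal. At chr5:39447803-39448782, 22.8 to 23.8 kb upstream of the canonical TSS in an intron of a longer transcript, H3K27ac was 2.64-fold in C4-2BER and 7.59-fold in C4-2B (−1.52), while H3K18ac was 3.29-fold and 3.73-fold (−0.18). The marks thus parted at this site, with H3K27ac decreased and H3K18ac little changed. The other distal H3K27ac region was chr5:39343107-39343437 beyond the 3′ end (2.81-fold in C4-2BER only), and a region at an internal TSS, chr5:39395950-39396999 in intron 1, was 1.99-fold and 2.14-fold. Of 18 H3K18ac regions at DAB2, 7 were increased and 4 decreased; the increased ones included 4 over exons 2, 4 and 12 and intron 6, between 2.51-fold and 3.15-fold.

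The decreased calls by ratio were few, and their distance from the threshold was as follows. Among regions of all 5 loci with a peak in both lines, 2 were the nearest past a 2-fold ratio, though not close to it. They were the shared DAB1 and OMA1 promoter in H3K27ac (log2 ratio −1.41) and the distal DAB2 region in H3K27ac (−1.52). Those just short of a 2-fold ratio were the same DAB1 and OMA1 promoter in H3K18ac (−0.97) and the second strongest DAB1 enhancer in H3K18ac (0.94).

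Promoters of 34 other genes of the pathway were then examined: other ligands of the receptors, proteases that cut reelin, related LDL receptors, regulators of receptor turnover, the SRC family kinases, proteins downstream of DAB1, the ligase that removes DAB1 and partners of DAB2. In H3K27ac, 33 had a promoter peak, and 0 were increased and 0 decreased, where 4.56% and 10.8% of all protein-coding genes with such a peak were, counted over all their TSSs. Their median log2 ratio was −0.64, beside −0.50 over 14304 protein-coding genes with a peak in both lines, and 1 of 33 (LRP2, a large endocytic receptor) was higher in C4-2BER, at 3.41-fold and 3.26-fold. In H3K18ac, all 34 had a peak, 0 were increased and 1 was decreased, beside 2.15% and 5.9% of all protein-coding genes with such a peak. The decreased one was PIK3CA, the catalytic subunit of a phosphoinositide 3-kinase, with a log2 ratio of −1.02. The median was −0.38, beside −0.33 over 16702 genes. The kinases of DAB1, FYN (4.98-fold in C4-2BER and 6.72-fold in C4-2B), SRC (11.7-fold and 12.7-fold) and YES1 (22.1-fold and 35.4-fold), carried H3K27ac at their promoters in both lines. LRP2, PIK3CA and the kinases were named after their values were seen.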

How the data were processed

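H3K27ac and H3K18ac ChIP-Seq of C4-2B and C4-2BER was used. Per the labels' processing notes, the authors used Trimmomatic 0.33 and bowtie2 2.2.3; per the methods, they aligned to GRCh38, removed blacklisted, low-quality and duplicate alignments, merged replicates and called broad peaks with macs2. The deposited lists give for each peak a fold enrichment (a ratio of ChIP signal to local background), −log10 p-value and −log10 q-value, and a score, which was not used. The fold is scaled to each list's own background. The authors' differential peaks, ATAC-seq and RNA-seq were not used here, and some results are not reported here.

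Overlapping peaks were merged into regions, valued by length-weighted mean fold. Positions and GC content came from GRCh38 and GENCODE release 44, promoter sequences from RefSeq. Named were the 5 genes, neighbours whose promoter lay in a region, the 10 strongest DAB1 enhancers, 3 distal regions per other gene, and pathway genes changed in H3K27ac or in both marks. The members and lists were chosen with earlier results of these data known; neighbouring windows, long genes, background, GC, width, canonical-TSS share and repeated-word values were chosen after seeing the data. Merging, calls and rescaling were tested on simulated data. Python 3.11.15, pandas 2.3.3, statsmodels 0.14.6, pysam 0.24.0 and samtools 1.23.1 were used.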

Additional observations from a re-analysis of the deposited data

How the results depend on the processing

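Counts at the 5 loci, the DAB1 enhancers and the promoters were recomputed under 291 combinations of result and alternative. Of the 68 that concern DAB1 counts and its canonical promoter, 57 kept their call or stayed within 1.5 times. With peaks of at least 4-fold only, 5 of 7 H3K27ac regions at DAB1 were increased. Of 10 H3K18ac regions there, 8 were increased and 0 decreased, and 2 of 2 enhancers were increased. Where the −log10 q-value had to reach 5, 12 of 14 H3K27ac regions and 10 of 10 enhancers were increased. Of 42 H3K18ac regions, 39 were increased and 1 decreased. In both cases fewer peaks enter, and the shares over all regions were not computed at these settings. Rescaling and counting the presence of a peak alone each left 0 decreased H3K27ac regions, since the upstream promoter fell short of or did not enter the ratio, and by presence alone the canonical H3K18ac promoter (log2 ratio 1.53) counted as unchanged. Of the other 223, 54 moved. Promoter results left without a value to compare were not among the 291. These included H3K18ac at the canonical DAB1 promoter and H3K27ac at RELN, with peaks of at least 4-fold and at the stricter q-value. The balance of increased against decreased regions turned in 3 of 100 settings, none of them at DAB1. With peaks of at least 4-fold, LRP8 had 1 increased and 0 decreased H3K18ac regions and DAB2 had 0 and 1. At the stricter q-value RELN had 2 and 1 in H3K27ac. Changes to or from a tie did not count as a turn. In H3K27ac, DAB2 had 1 and 1 in the main counts, 0 and 2 at both stricter settings, and 1 and 0 by presence alone. At a threshold of 1.5, the promoters of LRP8 (H3K27ac, −0.92, and H3K18ac, −0.59), DAB2 (H3K27ac, −0.91), RELN (H3K18ac, −0.90), VLDLR (H3K18ac, −0.59) and the shared DAB1 and OMA1 start (H3K18ac, −0.97) also counted as decreased. No paired analysis was possible because the replicates were pooled before peak calling and no test was made; for the same reason no replicate could be left out. Read depth is unknown, so weak sites without a peak are not shown to lack the mark.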
